A study of Mus musculus with 6 samples.

Results

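The integrated stress response and the unfolded protein response were described in aged skeletal muscle through 10 genes: Atf4, Ddit3, Xbp1, Trib3, Asns, Chac1, Sesn2, Atf3, Herpud1 and Gdf15. The genes were taken by name, through the RefSeq accession that the array gives each probe. The list was chosen with earlier results of these data known. They had 11 probes, 2 of them for Atf4. All 10 genes were well above background on all 6 arrays, and they were 10 of the 20900 genes that were tested.

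Both responses slow protein synthesis and switch on repair genes when a cell is under strain. In the integrated stress response, kinases that sense amino acid shortage, heme shortage, viral RNA or misfolded protein phosphorylate the translation factor eIF2, and the transcription factor ATF4 is then translated from a messenger that is otherwise poorly used. In the unfolded protein response, the sensors PERK, IRE1 and ATF6 of the endoplasmic reticulum (ER) start separate branches: PERK acts through eIF2, IRE1 splices the Xbp1 messenger into the form that encodes the active factor, and cleaved ATF6 turns on ER chaperones. In skeletal muscle the ATF4 branch is known for its link to fibre wasting and to mitochondrial stress, with Gdf15 as a secreted signal.

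Total RNA was isolated from the gastrocnemius, a calf muscle rich in fast fibres, of male C57BL/6J mice. The young group was 3 mice aged 13 weeks and the aged group was 3 mice aged 26 months, with 1 single-colour array per mouse, and the labels name no treatment or altered allele for either group. The comparison asked which messengers differ between young and aged muscle. Signal is given on a log2 scale on which 0 is the 75th percentile of the array, so a difference of 1 is a doubling. It can be compared between mice for 1 probe, but not between probes. The difference between groups was tested with limma, with Benjamini-Hochberg adjustment over all genes and a threshold of 0.05.

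Per array, 48.7% to 53.8% of probes were well above background, and no spot was saturated. All 8 muscle fibre markers (Acta1, Ckm, Myh1, Myh2, Myh4, Mb, Tnnt3 and Pvalb) were well above background in every mouse. The 6 arrays shared 1 slide and 1 scan. Young mice 1 to 3 and aged mouse 1 lay in row 1 of the slide and aged mice 2 and 3 in row 2, so the comparison within a row is aged mouse 1 against the young mice. Across all genes the median difference was -0.06 (aged minus young, log2), and 53 genes passed the threshold. In bulk muscle, fewer cells of a type and less RNA per cell cannot be told apart.

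None of the 10 genes passed the threshold. Over all genes tested, 0.196% passed as higher in aged mice and 0.0574% as lower. Xbp1, Atf3 and Gdf15 stood at an unadjusted limma p under 0.05, each with a higher mean in aged mice, and no member did so with a lower mean. That is 3 of 10 genes, where 6.07% of all genes were higher and 8.36% lower at that level. Within the first slide row, where aged mouse 1 alone stands against the young mice, the differences of Xbp1, Atf3 and Gdf15 were 0.70, 2.05 and 1.71. Age and slide row cannot be fully told apart for the other aged mice. For the same 3 genes every aged mouse lay above every young mouse, as it did for 7.92% of all genes. No member had every aged mouse below every young mouse, as 13.9% of all genes did. The means of 7 members were higher in aged mice and those of 3 were lower, with a median difference of 0.20. With each array scaled to its median instead, 5 means were higher and the median was 0.05.

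**Figure D1:**
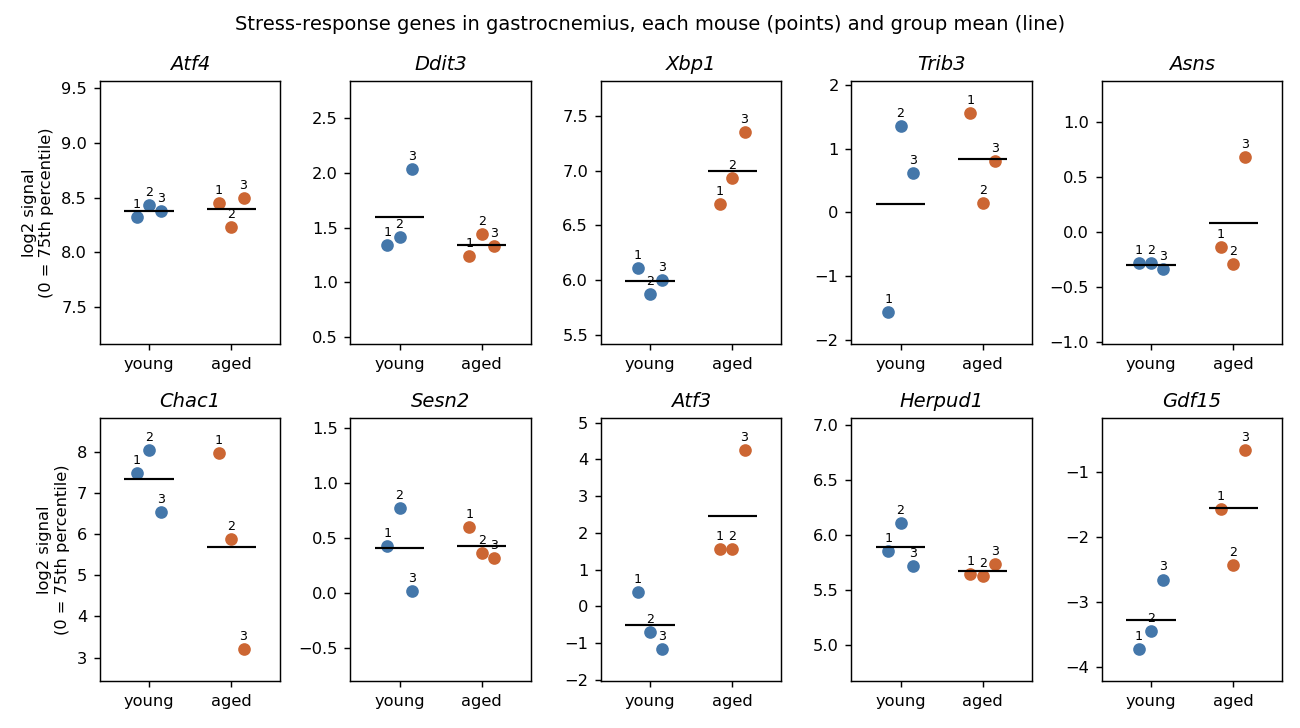
Log2 signal of the 10 genes in each mouse, relative to the 75th percentile of its array. Points are mice, numbered 1 to 3 in each group (young in blue, aged in orange), and lines are group means. The groups are apart for Xbp1, Atf3 and Gdf15 and overlap for the other genes. Each panel has its own scale.

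Among the transcription factors, the Atf4 messenger (NM_009716) had nearly the same mean in both groups. Young mice 1 to 3 were at 8.32, 8.43 and 8.38, and aged mice 1 to 3, in the order kept throughout, were at 8.45, 8.23 and 8.5. The aged mice surrounded the young ones, and the difference was 0.02 ± 0.16 (SE; 95% interval -0.35 to 0.38; limma adjusted p = 0.971). The interval leaves room for a 1.30-fold higher or a 0.783-fold level in aged mice. A second, dimmer Atf4 probe gave 2.77, 2.43 and 2.22 in the young and 2.76, 2.46 and 2.60 in the aged mice, a difference of 0.13 ± 0.22. Since ATF4 is controlled mainly in its translation, the messenger does not measure the protein.

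Ddit3 (NM_007837) encodes CHOP, the factor that ATF4 induces under lasting stress and that favours cell death. Its signal was 1.34, 1.41 and 2.03 in the young and 1.24, 1.44 and 1.33 in the aged mice. Young mouse 3 alone was high, and the other mice overlapped. The mean was 0.26 ± 0.22 (SE) below that of young mice on the log2 scale, with a 95% interval of the difference from -0.79 to 0.27 and a limma adjusted p of 0.622. Without young mouse 3 the difference was -0.04.

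Atf3 (NM_007498), a repressor of the same family that responds quickly to many stresses, had the largest difference of the 10 genes. Its signal was 0.38, -0.71 and -1.16 in young mice and 1.56, 1.57 and 4.27 in aged mice. All 3 aged mice lay above the highest young mouse, and aged mouse 3 lay far above the other two. The mean was 2.96 ± 0.79 (SE) higher in aged mice, which is 7.76-fold, with a 95% interval from 2.13-fold to 28.3-fold. The limma p was 0.007 and the adjusted p was 0.195. Without aged mouse 3 the difference was 2.06, and within the first slide row it was 2.05.

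Beside Atf3, 8 of 9 immediate early genes, which follow rapid stimulation of a cell or handling of a tissue, could be tested. None passed the threshold, and 6 of 8 had a higher mean in aged mice, with a median difference of 0.13. Their summed signal, in units of the 75th percentile of the array, was 73.1 to 132 in young and 89.3 to 111 in aged mice. Jun, with a log2 signal of 5.92 to 6.87, made up most of this sum in every mouse, and its difference was -0.12. Egr1, 1 of the 8, was 0.38, 0.30 and 0.59 in young mice and 0.38, 1.07 and 4.0 in aged mice, so that aged mouse 3 was the highest for Egr1 as for Atf3. Fos, whose levels in aged mice were 0.49, 0.64 and 1.58 against 0.51, -0.52 and -0.37 in young mice, was also highest in that mouse. Aged mouse 3 was the highest for 4 of the 8 genes (Fos, Fosb, Junb and Egr1) and the lowest for Dusp1, which was at 3.58, 3.44 and 3.14 in young and 3.28, 2.23 and 1.86 in aged mice. Junb (1.48; limma adjusted p = 0.227) was the only gene of the 8 with groups apart. These genes were picked out after their values were seen. The part of these genes in the difference of Atf3 was not tested.

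Xbp1 (NM_013842) encodes the factor of the IRE1 branch, which turns on genes of ER folding, secretion and degradation. Its signal was 6.12, 5.88 and 6.0 in young mice and 6.69, 6.94 and 7.36 in aged mice. The groups were apart, with a spread of 0.12 (SD) in the young and 0.34 in the aged mice. The mean was 1.0 ± 0.21 (SE) higher in aged mice, a 2.0-fold level with a 95% interval from 1.41-fold to 2.82-fold. The limma p was 0.002, which ranked it at position 326 of 20900 genes, and the adjusted p was 0.143. Within the first slide row the difference was 0.70. The deposited files give neither the sequence nor the position of the probe, so the spliced and unspliced Xbp1 forms cannot be told apart.

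Among the effectors, Trib3 (NM_175093), a pseudokinase that ATF4 and CHOP induce and that restrains AKT signalling, varied widely within the young group. It was at -1.57, 1.36 and 0.61 in young and 1.56, 0.14 and 0.80 in aged mice. Young mouse 1 alone was low. The difference of 0.70 ± 0.75 (SE; limma adjusted p = 0.693) was -0.15 without young mouse 1.

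Asns (NM_012055), the enzyme that makes asparagine, was at -0.28, -0.28 and -0.33 in young mice and at -0.14, -0.29 and 0.69 in aged mice. The young mice lay close together and aged mouse 3 alone was well above them, while aged mouse 2 was within their range. The difference was 0.38 ± 0.27 (SE; 95% interval -0.26 to 1.03; limma adjusted p = 0.546). It was 0.08 without aged mouse 3 and 0.16 within the first slide row.

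Chac1 (NM_026929), which breaks down glutathione, had the largest difference towards a lower mean and the widest spread of the 10 genes. Its signal was 7.47, 8.05 and 6.52 in young mice and 7.97, 5.88 and 3.21 in aged mice. Aged mouse 1 lay within the young range, and the SD among aged mice was 2.39. The aged mean was at a 0.316-fold level (log2 difference -1.66 ± 1.12 SE; 95% interval -4.31 to 0.99; limma adjusted p = 0.528). Within the first slide row the difference was 0.62, with the opposite sign, and without aged mouse 3 it was -0.42. Young mice 1 and 2 and aged mouse 1 were the highest, above young mouse 3 and the other two aged mice.

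Sesn2 (NM_144907), a leucine sensor that restrains mTORC1, was at 0.43, 0.78 and 0.02 in young and at 0.60, 0.37 and 0.32 in aged mice. All aged mice lay inside the young range, and the difference was 0.02 ± 0.23 (SE; 95% interval -0.52 to 0.56; limma adjusted p = 0.974).

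Herpud1 (NM_022331), an ER membrane protein that helps to remove misfolded proteins, was at 5.85, 6.11 and 5.72 in young mice and at 5.64, 5.63 and 5.74 in aged mice. Aged mouse 3 was just above the lowest young mouse, and the difference was -0.22 ± 0.17 (SE; 95% interval -0.62 to 0.17; limma adjusted p = 0.564). Without young mouse 2 it was -0.12.

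Gdf15 (NM_011819), a secreted hormone of the TGF-beta superfamily that lowers appetite through a brainstem receptor, was the third gene with groups apart. Its signal was -3.72, -3.44 and -2.65 in young mice and -1.56, -2.42 and -0.65 in aged mice. The gap between the highest young and the lowest aged mouse was small beside the spread of 0.89 (SD) among aged mice. The mean was 1.73 ± 0.48 (SE) higher in aged mice, which is 3.31-fold, with a 95% interval from 1.49-fold to 7.33-fold. In limma the p was 0.009 and the adjusted p was 0.209. The probe was dim. On a linear scale its signal was 0.076 to 0.159 of the array's 75th percentile in young mice. In aged mice it was 0.187 to 0.638. With another background correction, normexp, the difference was 0.80, so the size of the fold depended on how background was corrected. Within the first slide row the difference was 1.71.

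**Figure D2:**
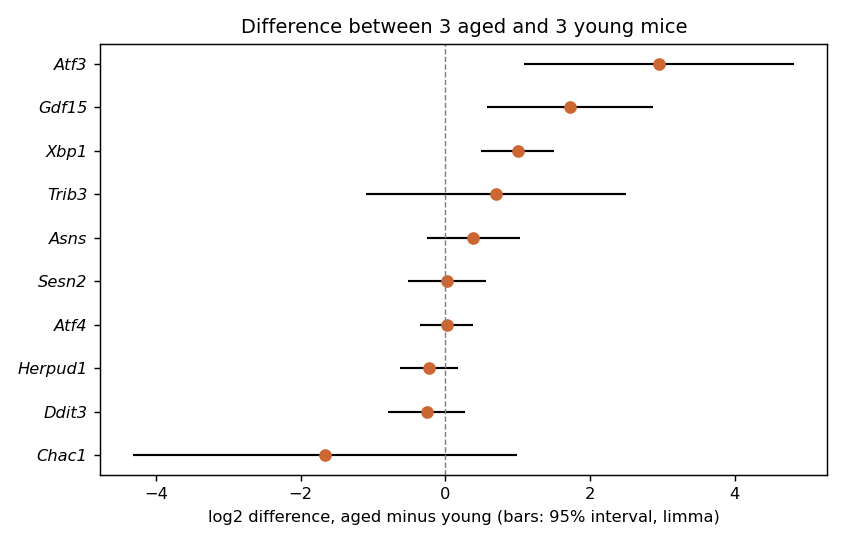
Difference between aged and young means of the 10 genes (points, log2) with the 95% interval of the limma fit (bars). Only the intervals of Atf3, Gdf15 and Xbp1 lie wholly above 0, and those of Chac1, Atf3 and Trib3 are the widest.

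Aged mouse 3 was the highest of the 6 mice for 5 of the 10 genes, Xbp1, Asns, Atf3, Gdf15 and Atf4, and the lowest for Chac1. Young mouse 2 was the highest for 3, Chac1, Sesn2 and Herpud1.

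The promoters of the 10 genes were compared to show which regulatory elements they share, as letters in the RefSeq windows of GRCm38.p6 from 250 bases before to 50 bases after each start. Windows were found for all 10 genes. The core of the C/EBP-ATF response element (CARE core, TTNCATCA), the composite element that ATF4 binds with a C/EBP partner, was in those of 5 genes: Trib3, Asns, Chac1, Atf3 and Herpud1. It was in 3.97% of all 32851 windows on either strand. The sites that lie before the start are printed here in the direction of the gene, because ATF4 is known to act on stress genes through such elements. Capitals mark the match, and in Asns the match is on the opposite strand.
Atf3, chr1:191183421-191183458, minus strand: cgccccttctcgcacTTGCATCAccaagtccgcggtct
Chac1, chr2:119351034-119351071, plus strand: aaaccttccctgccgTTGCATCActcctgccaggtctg
Asns, chr6:7693210-7693247, minus strand: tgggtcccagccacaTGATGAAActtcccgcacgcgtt
Herpud1, chr8:94386302-94386339, plus strand: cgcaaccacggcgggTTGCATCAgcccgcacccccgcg

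The genes with these letters did not share a direction: the difference was 2.96 for Atf3, 0.38 for Asns, -0.22 for Herpud1 and -1.66 for Chac1. It was 0.70 for Trib3, whose match lies after the start. Atf3, Chac1 and Herpud1 hold the same 8 letters at the match, and Atf3 and Chac1 had the highest and the lowest difference of the 10 genes. The windows of Xbp1 and Gdf15, the other two genes with groups apart, held no match, which says only that these letters are not in those windows.

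The ER stress element (ERSE, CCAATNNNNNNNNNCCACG), to which ATF6 and XBP1 are recruited, was in 0.119% of all windows on either strand. It was in none of the 10 members' windows and in those of 8 of the 14 ER chaperones and folding enzymes that had a window: Hspa5, Hsp90b1, Calr, Canx, Pdia6, Dnajc3, Creld2 and Ero1b. Herpud1 had a match to the shorter ERSE-II (ATTGG and CCACG with 1 base between them), which was in 0.037% of all windows and has the ends of ERSE with the CCAAT box turned round. A core of the UPR element (UPRE, TGACGTGG) was in no member's window and in 0.676% of all. Among the chaperones with a window, only Dnajb11 had an ERSE-II match, which lies after the start. The ERSE matches of Hspa5 and Pdia6 are shown as examples from the chaperone group, beside the ERSE-II match of Herpud1. Capitals mark the ends of each element with the bases between them.
Herpud1, ERSE-II, chr8:94386362-94386402, plus strand: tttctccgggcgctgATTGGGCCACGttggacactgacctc
Hspa5, ERSE, chr2:34772010-34772058, plus strand: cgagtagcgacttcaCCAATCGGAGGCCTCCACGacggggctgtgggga
Pdia6, ERSE, chr12:17266476-17266524, plus strand: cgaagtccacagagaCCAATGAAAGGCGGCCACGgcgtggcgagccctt

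Of the 9 lists of other pathway genes, none had a gene past the threshold. The list furthest from the median of all genes was that of ER chaperones and folding enzymes, the genes that XBP1 and ATF6 are known to turn on. The means of 15 of its 17 genes were higher in aged mice, with a median difference of 0.61 against -0.06 over all genes. At an unadjusted limma p under 0.05, 7 of 17 were higher and none lower, where 6.07% of all genes were higher and 8.36% lower. For 8 of 17 every aged mouse lay above every young mouse, as it did for 7.92% of all genes.

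The lowest adjusted p of the list was that of Sdf2l1, part of the ER chaperone complex. Its signal was -0.66, -0.89 and -0.46 in young mice and 0.65, 0.85 and 1.29 in aged mice, with the groups wide apart. The difference was 1.6 on the log2 scale (3.04-fold; limma adjusted p = 0.060). Pdia4, a disulfide isomerase, was at -2.38, -3.13 and -3.07 in young and at -1.80, -2.10 and -0.61 in aged mice, a difference of 1.36 (limma adjusted p = 0.238).

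The next genes were picked out after their values were seen. Hspa5 encodes BiP, the main chaperone of the ER lumen, and was at 5.74, 5.42 and 5.67 in young mice and at 5.88, 6.34 and 6.76 in aged mice. Its difference was 0.72, with aged mouse 1 just above the young mice (limma adjusted p = 0.286). Manf, a secreted ER stress protein, was at 1.48, 1.1 and 1.39 in young and at 2.07, 2.39 and 3.25 in aged mice, a difference of 1.25 (limma adjusted p = 0.183). The remaining genes with groups apart were Hyou1 (1.03; above background in 2 of 3 young mice), P4hb (0.61), Pdia3 (0.61) and Dnajb11 (0.29). At the other end were Dnajc3, a co-chaperone, at -0.21 and Sil1, a nucleotide exchange factor for BiP, at -0.05. Dnajb9, a co-chaperone known as a target of spliced Xbp1, was at 3.21, 3.21 and 2.99 in young and at 3.30, 2.94 and 3.19 in aged mice, with overlapping groups and a difference of 0.01.

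**Figure D3:**
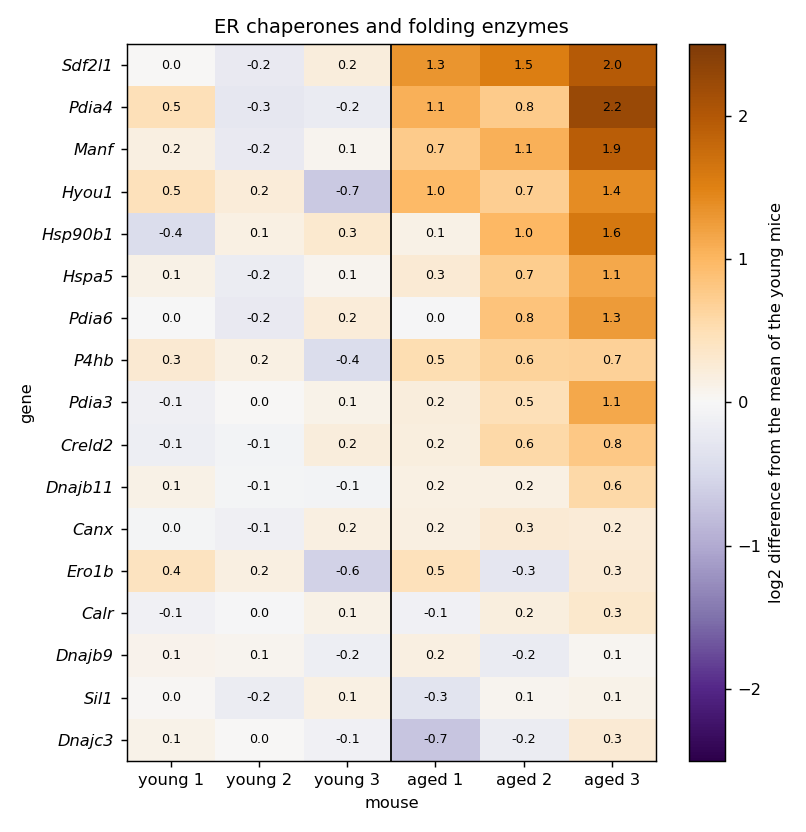
Signal of 17 ER chaperones and folding enzymes in each mouse, as the log2 signal minus the young mean (colour and printed value), in order of the difference between group means. Aged mouse 3 is above the young mean for all 17 genes, aged mouse 2 for 14 and aged mouse 1 for 13.

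The aged mice were not alike for this list. Aged mouse 3 was the highest of the 6 mice for 13 of the 17 genes. Against the young mean, the median over the list was 0.19 for aged mouse 1, 0.58 for mouse 2 and 0.80 for mouse 3. The first of these is also the value within the first slide row, where 1 of 17 genes was higher at an unadjusted limma p under 0.05, as 4.86% of all genes were. Without aged mouse 3 the median was 0.38, with 3 of 17 genes higher at that level against 4.33% of all genes. After scaling each array to its median it was 0.46, with 3 of 17 genes apart where 3.33% of all genes were. Age and slide row cannot be fully told apart for aged mice 2 and 3, since that row held no young mouse.

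The other lists lay nearer to the median of all genes. The sensors and the eIF2 cycle, 17 genes that include the 4 eIF2 kinases, IRE1, ATF6 and the subunits of the exchange factor eIF2B, had a median difference of 0.06, with 10 means higher and 7 lower. None was higher and 1 was lower at an unadjusted limma p under 0.05, where 6.07% of all genes were higher and 8.36% lower. The largest differences were those of the eIF2B subunits Eif2b3 (1.22; limma adjusted p = 0.397) and Eif2b5 (0.97; limma adjusted p = 0.540), both with overlapping groups. Eif2b3 was at 0.94, 0.10 and -0.94 in young and at 1.52, 0.28 and 1.97 in aged mice. Eif2b5 was at 3.56, 3.21 and 0.89 in young and at 3.85, 3.20 and 3.52 in aged mice, so that young mouse 3 alone was low. Mbtps1, the protease that cleaves ATF6, was at 3.87, 3.82 and 3.82 in young and at 3.14, 3.62 and 3.26 in aged mice. Each aged mouse was below all young mice, and the difference was -0.50 (limma adjusted p = 0.290). Eif2ak4, the kinase GCN2, had a difference of -0.36.

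Of the 7 partner transcription factors, 4 had higher and 3 lower means, with a median of 0.30. Creb3, an ER-bound factor of the ATF6 type, was at 2.65, 2.88 and 2.68 in young mice and at 3.21, 3.68 and 3.79 in aged mice. The groups were apart and the difference was 0.83 (limma adjusted p = 0.174). Cebpg, a C/EBP partner of ATF4, had a difference of 1.29 with an SD of 1.43 among aged mice (limma adjusted p = 0.462). Atf5, which is translated under the same control as Atf4, was at 6.73, 6.66 and 6.93 in young and at 6.48, 6.39 and 6.25 in aged mice. All aged mice were below all young mice, with a difference of -0.40 (limma adjusted p = 0.333). Nupr1, a stress-induced cofactor, had a difference of -0.36.

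ATF4 is known to feed amino acid supply through enzymes, transporters and tRNA synthetases. Of 12 enzymes of amino acid and one-carbon synthesis tested, 5 had higher and 7 lower means, with a median of -0.08 (0.07 without aged mouse 2). Aldh1l2, a mitochondrial folate enzyme, was at -0.41, -0.83 and -0.22 in young mice and at -2.25, -2.03 and -1.34 in aged mice. Its groups were apart with a difference of -1.39 (limma adjusted p = 0.140), the lowest of the list, followed by Mthfd1l at -0.64. Gpt2 (0.67) and Mthfd2 (0.52) had the largest differences towards a higher mean (limma adjusted p = 0.562 and 0.654). Phgdh and Psat1, the first enzymes of serine synthesis, were picked out after their values were seen and had differences of -0.22 and -0.01.

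Of the 7 amino acid transporters tested, 2 had higher and 5 lower means, with a median of -0.15 (0.04 without aged mouse 2). Slc38a2 (0.17) and Slc3a2 (0.04) were at one end and Slc1a5 and Slc6a9 (both -0.31) at the other, with limma adjusted p between 0.457 and 0.921 for these 4 genes. The 12 aminoacyl-tRNA synthetases were split evenly, 6 against 6, around a median of 0.00. The CARE core was in the windows of 5 of the 8 that had one. Nars1 (0.43) and Lars1 (0.16) were the highest and Aars1 (-0.29) and Cars1 (-0.28) the lowest. For 4 of the 12 every aged mouse lay below every young mouse, as it did for 13.9% of all genes. None of the 12 had an unadjusted limma p under 0.05.

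Of 10 other targets of ATF4 and CHOP, 7 could be tested, 5 with higher and 2 with lower means and a median of 0.28. Bbc3, the cell death gene that encodes PUMA, had a difference of 0.96 with groups apart (limma adjusted p = 0.289), and Eif4ebp1, a brake on translation, had one of 0.47. Ddit4, an inhibitor of mTORC1, was split within both groups, at 6.62, 7.74 and 2.92 in young and 7.45, 3.25 and 3.14 in aged mice. Its difference of -1.14 had a 95% interval from -4.85 to 2.57. Vldlr had a difference of -0.30. Fgf21, a hormone often measured beside Gdf15, Ero1a and Adm2 were not well above background on 3 of the 6 arrays and were not tested.

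Of 13 genes of ER-associated degradation, 11 could be tested, with 6 means higher, 5 lower and a median of 0.06. Edem1 (0.52) and Selenos (0.47) were the highest, and Erlec1 (-0.34) and Ube2j1 (-0.26) the lowest. Among 6 close relatives of the members, the median was 0.09. Trib2 (0.47) and Sesn3 (0.16) had the largest differences towards a higher mean and Chac2 (-0.33) and Herpud2 (-0.19) towards a lower one, with limma adjusted p of 0.447 or above.

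**Figure D4:**
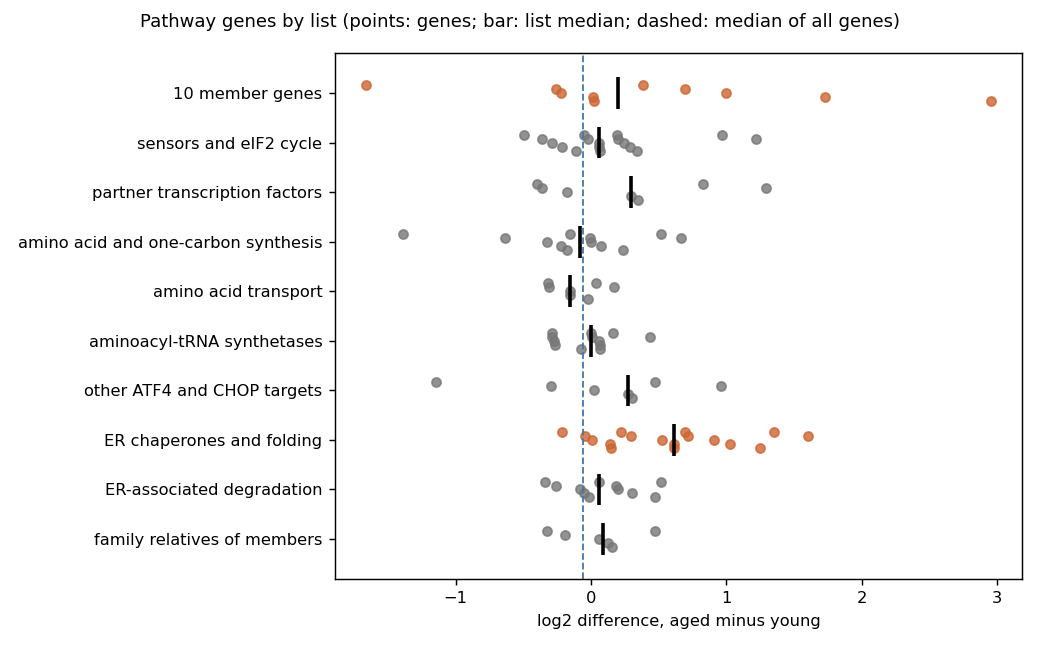
Difference between aged and young means (log2) for the 10 genes and 9 lists of pathway genes. Points are genes, black bars are list medians and the dashed line is the median of all genes, -0.06. The medians lie between -0.15 and 0.61, and that of the ER chaperones and folding enzymes is the highest.

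Markers of other cells were read beside Xbp1, Gdf15 and the chaperones, because secretory and immune cells also express them. Macrophage markers had a median difference of 0.55, with 5 of 6 higher, and a summed signal of 19.2 to 21.0 in young and 21.2 to 27.2 in aged mice. Csf1r, the only one of them without a higher mean (-0.05), made up the largest part of that sum in every mouse. Of 5 neutrophil markers tested, S100a8 (4.80) and S100a9 (4.70) passed the threshold, Csf3r (0.05) and Elane (-0.31) did not, and Retnlg was above background in aged mice but in no young mouse. The median of the 4 that were above background on all arrays was 2.37, and with normexp that of all 5 was 1.37. The summed signal was 156 to 161 in young and 169 to 199 in aged mice, of which Csf3r made up 85.2% to 99.3%. Of the plasma cell markers 3 of 5 could be tested, 2 of them with higher means, while Ighm and Tnfrsf17 were not tested. Their summed signal was 0.615 to 0.843 in young and 0.605 to 1.08 in aged mice, with Jchain at 1.42 and Mzb1 at -0.28. All 6 fibroblast markers had lower means, with a summed signal of 447 to 509 in young and 209 to 343 in aged mice. Dcn (-0.85) made up most of the fibroblast sum in every mouse. The median difference was 0.06 for endothelium, -0.23 for adipocyte and -1.11 for both erythrocyte and Schwann cell markers. Of the spots that were not controls, none had a signal of 0 or below on any array, so a sum above 0 does not show that a marker was detected.

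A list of 7 muscle genes that answer to loss of the nerve (Chrna1, Chrng, Myog, Runx1, Gadd45a, Ncam1 and Musk) was read in the same way. Chrng was above background in no young mouse and was tested only through the aged group. The other 6 each had every aged mouse above every young mouse, as 7.92% of all genes did. Their median difference was 2.15, against -0.06 over all genes. None of the 7 passed the threshold (lowest limma adjusted p 0.067). The summed signal of the 7 was 19.6 to 23.5 in young mice and 46.2, 65.0 and 126 in aged mice 1 to 3. Aged mouse 3 was the highest for this sum, as for Xbp1, Atf3, Gdf15 and 13 of the 17 chaperones. The part of these marker lists in the differences of the stress genes was not tested.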

How the data were processed

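Expression was measured on single-colour Agilent arrays in gastrocnemius of 3 young and 3 aged mice. The deposited values were intensities on a linear scale, produced by the authors with Agilent Feature Extraction (11.0.1.1 per the file headers, 9.5 per the submitters' processing notes), with background subtracted and no scaling between arrays. The deposited table of the whole series held the same intensities. The study's methods name no normalization or test for the arrays.

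Of 62976 spots per array, 59305 were not controls, and 161 to 212 flagged as outliers were dropped. Accessions were named through RefSeq, which gave a symbol to 28331 of 55681 probes. The log2 signals of a probe's spots were averaged and the array's 75th percentile was subtracted. A probe was kept if it was detected, well above background, on 3 or more arrays, and the brightest kept probe stood for a gene. Groups were compared with limma 3.58.1 (lmFit and eBayes, R 4.3.3) over all 20900 genes, after the script had been tested on simulated data. The number of arrays limits the precision. The labels give separate mice and state nothing more on how they were sampled.

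The 10 genes, the pathway and marker lists and the tests were chosen with earlier results of these data known. Besides the 10 genes, those named are the 2 with the largest positive and the 2 with the largest negative difference in each pathway list, among genes above background on all 6 arrays. Other genes were named after their values were seen, apart from the marker genes, which are given as lists. Motifs were searched on both strands of RefSeq promoter windows of GRCm38.p6. The array was designed on another build, and no probe coordinates are given. Normexp used the median spot signal and the median background, with an offset of 50.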

Additional observations from a re-analysis of the deposited data

How the results depend on the processing

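None of the 10 genes passed the threshold under any of the 17 alternatives. Xbp1 (0.70 to 1.149 on the log2 scale; adjusted p 0.071 to 0.385), Atf3 (2.05 to 3.41; 0.129 to 0.497), Gdf15 (0.80 to 2.17; 0.186 to 0.478), Asns (0.08 to 0.57), Ddit3 (-0.40 to -0.04) and Herpud1 (-0.37 to -0.12) kept their direction under all of them. The median of the 10 genes, 0.20, was 0.40 with the slide row as a block and 0.05 after median scaling, and it ranged from 0.0093 (without young mouse 1) to 0.34 (without aged mouse 2) when each mouse was left out. Differences near 0 turned sign: Atf4 was -0.13 after median scaling and -0.037 to 0.096 with each mouse left out, and Sesn2 was -0.068 with normexp, -0.13 after median scaling and -0.18 to 0.20 with each mouse left out. Trib3 ranged from -0.15 to 1.31 and Chac1 from -2.80 to -0.42 with each mouse left out, and Chac1 was 0.62 with the slide row as a block. Median scaling moved the median of all genes by -0.15, to -0.21.

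Over all genes, 53 passed the threshold (41 higher, 12 lower). The count was 8 with no filter on dim probes, 35 with probes above background on all arrays, and 1 (without aged mouse 3) to 199 (without aged mouse 1) with each mouse left out. It split into 26 higher and 16 lower after median scaling, 38 and 22 with normexp, and 22 and 19 with the slide row as a block. Mice with the same number did not deviate together (correlations -0.06, -0.27 and 0.03), so no pairing by number was seen. With 3 mice in each group these values cannot exclude one. With the replicate block 5 genes passed, none of them among the 10, and the median of the 10 stayed at 0.20. In the chaperone list 1 gene passed with normexp, with percentile scaling on detected probes, with a mean-variance trend and without aged mouse 1, and none otherwise. The median of the other ATF4 and CHOP targets, 0.28, was -0.39 without aged mouse 1, and that of the partner factors, 0.30, was -0.29 with the slide row as a block. After median scaling, the medians of the sensors and of ER-associated degradation, both 0.06, were -0.09, that of the tRNA synthetases was -0.15 and that of the relatives, 0.09, was -0.06. The relatives were at -0.19 without young mouse 3, and the medians of amino acid synthesis (-0.08) and transport (-0.15) were 0.07 and 0.04 without aged mouse 2. The cause of these changes was not tested.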

Other observations

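Ddit4 was not the only gene of these lists that was split within both groups. Sesn1, a p53 target related to Sesn2, was at 2.81, 3.60 and 2.08 in young mice 1 to 3 and at 4.75, 1.96 and 1.96 in aged mice 1 to 3. Cth, which makes cysteine, was at -0.35, -0.20 and -1.92 in young mice and at 1.03, -1.67 and -1.62 in aged mice. Stc2, a secreted glycoprotein, was at -1.57, -2.38 and -2.82 in young mice and at -0.60, -2.74 and -2.60 in aged mice. In all 4 genes young mice 1 and 2 and aged mouse 1 lay above young mouse 3 and aged mice 2 and 3. The same order was found in 15 of the 106 genes tested in the pathway lists and among the 10 genes, Chac1, Sesn2, Cebpb and Cbs included, and in 7.28% of all 20900 genes. These genes were picked out after their values were seen, and no test was run on the split.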
